A study of Mus musculus with 435 samples.

Results

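Described here are 44 genes of G2 and mitosis, taken by name, out of 16459 genes measured in single cells of fetal mouse XY gonads. All 44 were measured, and all 44 passed the filter on low values (a mean of at least 1 RPKM, a read count per length and depth, in at least 2 captures), with 12313 genes in all. The cells came from XY gonads of mice on a mixed background that carry the NR5A1-eGFP transgene, a green reporter of Nr5a1, a nuclear receptor of gonadal precursors and of cells that make steroids, and there was no other genotype or treatment. Cells of E10.5 gonads came in 1 capture, on a microfluidic chip after a sort for green fluorescence that left out dead cells. Gonads of E11.5 and E12.5, and likewise those of E13.5 and E16.5, gave 2 captures per stage. The labels do not give the number of embryos behind a capture, so p-values measure the spread between captures.

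In G2 a dividing cell builds up the cyclins that switch on the kinase Cdk1, and in mitosis it condenses its chromosomes, attaches them to a spindle, holds them at the spindle checkpoint until all are attached, and then divides. Most transcripts of these proteins accumulate late in the cycle and are low in resting cells, so their level in a single cell follows its place in the cycle. In the fetal testis, the cells of the coelomic epithelium divide before and during sex determination, Sertoli cells keep dividing after they have formed, and fetal Leydig cells seldom do.

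Genes of this group are known to be repressed in resting cells through a short promoter element, the cell cycle homology region, which lies near CCAAT boxes bound by NF-Y. In the RefSeq promoter table (GRCm38.p6, 250 bases before to 50 after each start), 38 of the 44 genes were matched, with 41 windows. The letters TTTGAA (either strand) were in 32 of the 41 windows, or 78.05%, against 17.9% of 32851 windows of all genes. CCAAT (either strand) was in 33, or 80.5%, against 37.4%. Both were in 29, or 70.7%, against 6.95%. At least 2 CCAAT were in 25, or 60.98%, against 11.7%. A CCAAT and a TTTGAA match can share at most 1 end letter, and a match describes the letters, not a bound site. The 5 sequences below, 150 bases that end just before the gene's start, are shown because they hold both motifs and touch no annotated exon. In the other members with both motifs within these 150 bases, the window checked, 1 per gene, did touch one. Each reads 5′ to 3′ along the gene, and capitals mark CCAAT or TTTGAA, which read ATTGG or TTCAAA where the motif is on the other strand.
Mki67, chr7:135716380-135716529, - strand: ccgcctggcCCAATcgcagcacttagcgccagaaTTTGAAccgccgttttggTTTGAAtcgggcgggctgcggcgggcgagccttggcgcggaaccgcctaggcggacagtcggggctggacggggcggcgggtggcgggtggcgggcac
Top2a, chr11:99024190-99024339, - strand: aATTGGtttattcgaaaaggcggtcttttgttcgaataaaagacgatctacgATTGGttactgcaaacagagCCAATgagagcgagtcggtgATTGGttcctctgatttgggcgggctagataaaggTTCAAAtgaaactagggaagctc
Kif11, chr19:37376232-37376381, + strand: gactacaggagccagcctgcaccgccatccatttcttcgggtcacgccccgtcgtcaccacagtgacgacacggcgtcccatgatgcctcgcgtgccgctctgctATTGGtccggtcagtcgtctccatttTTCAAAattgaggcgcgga
Ckap2, chr8:22185820-22185969, - strand: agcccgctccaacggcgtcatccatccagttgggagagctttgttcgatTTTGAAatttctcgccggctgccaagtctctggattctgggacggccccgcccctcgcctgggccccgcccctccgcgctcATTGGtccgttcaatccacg
Ckap2l, chr2:129297213-129297362, - strand: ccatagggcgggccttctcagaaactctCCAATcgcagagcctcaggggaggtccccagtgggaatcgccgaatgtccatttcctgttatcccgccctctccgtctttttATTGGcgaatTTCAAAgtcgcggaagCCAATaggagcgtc
The first base of the TTTGAA motif lay 23 bases before the start of Top2a, 19 before that of Kif11 and 30 before that of Ckap2l. The nearest CCAAT ahead of it was 58 bases before the start in Top2a, 45 in Kif11 and 40 in Ckap2l, and Ckap2l had another CCAAT after it, at 14. Mki67 had TTTGAA at 116 and 98 bases and CCAAT at 141. In Ckap2 the order was the other way round, with TTTGAA 101 and CCAAT 20 bases before the start.

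Of 435 labelled cells, 400 were in the values, and 396 were kept, 30 to 59 per capture. Labelled read numbers were 25 M for the E10.5 and E13.5 captures and 10 M for all others, and chips were small except for the first capture of E13.5, which used a medium one. The depth implied by the values had medians per capture from 7.85 to 8.08 M reads in the captures labelled 25 M and from 2.2 to 3.24 M in those labelled 10 M. A set of 13 cells stands apart, and levels of their capture and results for E12.5 are given with and without them. These cells, all in the second E12.5 capture, formed a cluster led by the germ cell genes Dppa5a, Dppa3, Dazl and Ddx4. Dppa3 was present in 13 of 13 of them and in 2 of the 383 other cells, and Dazl in 9 of 13 and 0 of 383. Dppa5a was in 7 of 13 and 1 of 383, and Ddx4 in 4 of 13 and 4 of 383. Of the other listed germ cell genes, Kit was in 3 of 13, Utf1 in 2 and Dppa4 in 1, against 60, 12 and 2 of 383. The eGFP transcript, which checks the sort, was in 13 of 13 of them and in 357 of the 383 others. Gata4 and Wt1, genes of somatic cells of the gonad, were in 13 of 13 as well, and the germ cell genes Pou5f1, Nanog and Mael were in 0 of 13. They are called germ-cell-like, and whether they are cells of another type or wells with RNA of more than 1 cell was not tested.

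The mitosis score of a cell is the mean of log2(RPKM + 1) over the 44 genes. It was low in most cells and spread widely above that, as the plot of scores by capture shows: 206 of 396 cells had a score under 1, 63 a score of 4 or more, and the highest was 6.92. A score of 2 or more, called high here, was found in 130 cells (32.8%), and 46 cells lay between 1.5 and 2.5, near that limit. The last cell inside it had 2.014 and the first outside 1.996. High cells had a median of 34 of the 44 genes at 1 RPKM or more, against 6 in low cells, and only 2 cells had all 44. The limit is set on these same 44 genes. This difference, and the shares of high and low cells given by gene below, thus follow in part from it. High cells also had more genes detected in all, a median of 6368 against 5377 in low cells. Between score and genes detected, both centred within captures, r was 0.44 over 396 cells, which share their captures. The median implied depth, pooled over captures, was 6.13 M reads in high cells and 3.43 M in low cells. Centred within captures, the r of its log2 with the score was 0.15. With each cell thinned to 1 M of its implied reads, an approximate step because counts could not be recovered, the share of high cells was 55.9% in place of 57.6% at E10.5 and 45.9% in place of 48.6% in the second E12.5 capture, and was the same in the other 7. The part of the number of genes detected in the score was not tested.

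High cells were most frequent at E10.5. Of 59 cells at E10.5, 34 were high, or 57.6% (Wilson 95% interval 44.9 to 69.4). At E11.5 there were 8 of 52, or 15.4% (8.01 to 27.5), and 8 of 41, or 19.5% (10.2 to 34.01), and neither interval reaches that of E10.5. The first E12.5 capture had 7 of 30, or 23.3% (11.8 to 40.9). The second had 18 of 37, or 48.6% (33.5 to 64.1), of which 13 were the germ-cell-like cells. Without them 5 of 24 were high, or 20.8% (9.25 to 40.5), close to the first E12.5 capture at this limit. The median score of these 24 cells was 1.56, against 0.587 in the first E12.5 capture. The E13.5 captures had 22 of 56, or 39.3% (27.6 to 52.4), in the first, on the medium chip, and 13 of 56, or 23.2% (14.1 to 35.8), in the second, with overlapping intervals. At E16.5 there were 10 of 31, or 32.3% (18.6 to 49.9), and 10 of 34, or 29.4% (16.8 to 46.2). Intervals cover counting error only.

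**Figure D1:**
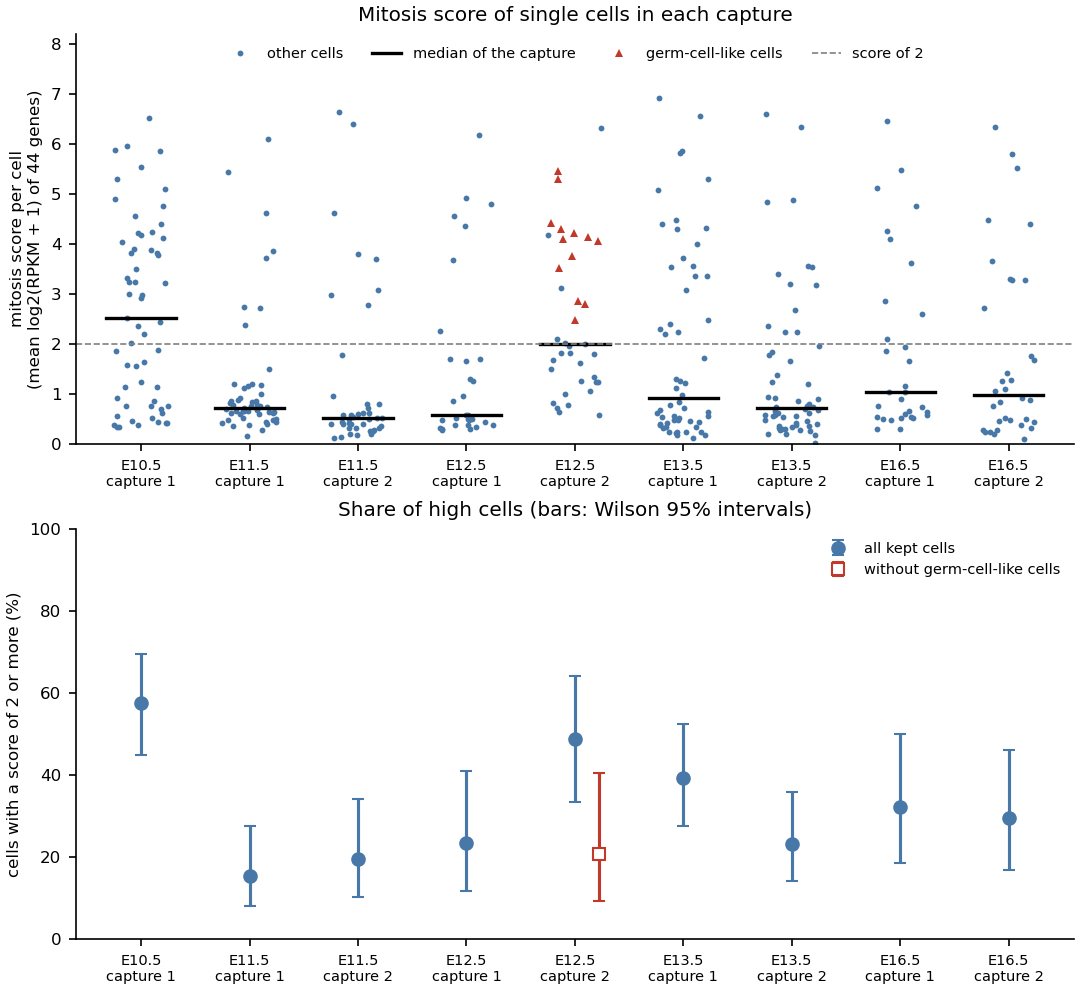
The upper panel plots the mitosis score (mean log2(RPKM + 1) of the 44 genes) of each of 396 cells by capture, with the median as a line, and the lower panel the share of cells with a score of 2 or more with Wilson 95% intervals. E10.5 has the highest median, 2.52, and all 13 germ-cell-like cells (triangles) lie above 2; without them the share in that capture is 20.8% in place of 48.6%.

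With all kept cells, the mean score among high cells lay between 3.77 and 4.39 in all 9 captures. Without the germ-cell-like cells it was 3.55 in the second E12.5 capture, below that range. By capture, with all kept cells, the mean among high cells was 3.99 for E10.5, 3.94 and 4.24 for E11.5, 4.39 and 3.84 for E12.5, 4.06 and 3.77 for E13.5 and 4.13 and 4.28 for E16.5. The mean over all cells was 2.67 in the E10.5 capture, 1.21 and 1.22 in those of E11.5, 1.57 and 2.54 (1.775 without the germ-cell-like cells) in those of E12.5, 1.95 and 1.40 in those of E13.5 and 1.89 and 1.77 in those of E16.5. One capture was unusual among its low cells too: in the second E12.5 capture low cells averaged 1.31, against 0.49 to 0.86 in the other captures, and 11 of its cells lay between 1.5 and 2.5. With a pseudocount of 0.1 the order of the captures by mean score was the same.

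The levels by gene follow, as the mean RPKM over the cells of a capture, a value in which fewer cells with a transcript and less of it per cell cannot be told apart. They are ordered by role, and RPKM is per length, so genes can be set beside each other. Among genes of chromosome structure, Top2a, which untangles DNA, had the highest mean over captures. Top2a averaged 71.1 RPKM in the E10.5 capture, 30.3 and 44.8 in the E11.5 captures, 53.4 and 105.5 (64.2 without the germ-cell-like cells) in the E12.5 captures, 49.3 and 51.5 in the E13.5 captures and 35.8 and 67.5 in the E16.5 captures. The second E12.5 capture was the highest, or E10.5 without the germ-cell-like cells, in which Top2a averaged 181.9 RPKM. Both E11.5 captures were below the others except the first E16.5 capture. Mki67, which coats mitotic chromosomes and is the usual marker of dividing cells, averaged 21.9 RPKM over the captures and was found in 91.5% of high cells and 15% of low cells. The condensin subunits Smc4 and Ncapd2, which compact chromosomes, averaged 33.7 and 9.4 RPKM. By capture, Ncapd2 averaged 10.9 RPKM in the E10.5 capture, 3.85 and 6.26 in the E11.5 captures, 3.99 and 15.6 (8.03 without the germ-cell-like cells) in the E12.5 captures, 6.78 and 8.8 in the E13.5 captures and 18.8 and 9.61 in the E16.5 captures. The first capture was the lower at E11.5 and E12.5, and the higher at E16.5.

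Of the cyclins and their kinase, Ccnb2, a B-type cyclin, had the highest mean over captures. Ccnb2 averaged 110 RPKM in the E10.5 capture, 47.2 and 24.2 in the E11.5 captures, 69 and 64.1 (54.9 without the germ-cell-like cells) in the E12.5 captures, 47.8 and 72.1 in the E13.5 captures and 118.6 and 65.3 in the E16.5 captures. The second E11.5 capture was the lowest, followed by the first E11.5 and first E13.5 captures, and the E10.5 and first E16.5 captures were the highest. Ccna2, the cyclin of S phase and G2, averaged 22.1 RPKM, and Cdk1, the kinase they switch on, 47.8. Ccnb1, the main mitotic cyclin, averaged 33.3 RPKM in the E10.5 capture, 23.3 and 12.3 in the E11.5 captures, 24.2 and 44 (31.3 without the germ-cell-like cells) in the E12.5 captures, 38.7 and 21.3 in the E13.5 captures and 26.3 and 27.1 in the E16.5 captures. It was lowest in the second E11.5 capture and highest in the second E12.5 capture, or in the first E13.5 capture without the germ-cell-like cells. Cdk1 was found in 90.8% of high cells and 37.6% of low cells, the largest share of low cells in this role. Cdc25c, the phosphatase that activates Cdk1, averaged 31.5 RPKM in the E10.5 capture, 23.4 and 10.7 in the E11.5 captures, 8.86 and 11.2 (0.742 without the germ-cell-like cells) in the E12.5 captures, 25.7 and 6.22 in the E13.5 captures and 37.8 and 17.2 in the E16.5 captures. Captures of the same stage differed up to several-fold in Cdc25c, and in the second E12.5 capture it came nearly all from germ-cell-like cells.

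Plk1, a kinase of mitotic entry and spindle assembly, had the highest mean over captures of the mitotic kinases, close to that of Aurka. Plk1 averaged 42.5 RPKM in the E10.5 capture, 17.1 and 16 in the E11.5 captures, 32.2 and 21.6 (9.11 without the germ-cell-like cells) in the E12.5 captures, 6.74 and 6.96 in the E13.5 captures and 21.1 and 10.7 in the E16.5 captures. The E10.5 capture was the highest and the E13.5 captures the lowest, close to each other. Aurka, the kinase of the spindle poles, averaged 18.5 RPKM, from 3.52 to 44.8 (37.1 without the germ-cell-like cells) in the 2 E12.5 captures. Nek2, a kinase that splits the centrosomes, had the lowest mean of all 44. Nek2 averaged 1.34 RPKM in the E10.5 capture, 0.062 and 0.773 in the E11.5 captures, 0.115 and 0.507 (0 without the germ-cell-like cells) in the E12.5 captures, 2.17 and 0.645 in the E13.5 captures and 1.44 and 2.11 in the E16.5 captures, and it was found in 22 of 396 cells.

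In the chromosomal passenger complex, which corrects attachments and guides division, Birc5 (survivin) had the highest mean over captures. Birc5 averaged 38.9 RPKM in the E10.5 capture, 9.68 and 23.5 in the E11.5 captures, 29.9 and 48.9 (32.7 without the germ-cell-like cells) in the E12.5 captures, 54.5 and 28.5 in the E13.5 captures and 36.5 and 34.6 in the E16.5 captures. It was found in 97.7% of high cells and 20.3% of low cells, the largest share of high cells of any of the 44 genes. The kinase of the complex, Aurkb, averaged 18.7 RPKM and Cdca8 (borealin) 16. Among spindle checkpoint genes, Bub3 had the highest mean over captures of all 44 genes. Bub3 averaged 111.4 RPKM in the E10.5 capture, 82.7 and 67.1 in the E11.5 captures, 118.2 and 123 (115.7 without the germ-cell-like cells) in the E12.5 captures, 109 and 76.7 in the E13.5 captures and 97 and 92.3 in the E16.5 captures. Its highest capture was 123 and its lowest 67.1, a narrow range, and it was in 90.8% of high cells and 67.7% of low cells. Mad2l1, which holds the checkpoint, averaged 53.6 RPKM, the checkpoint kinases Bub1 and Ttk 11.8 and 8.09, and Bub1b, an inhibitor of Cdc20, 16.9.

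Bub1 averaged 20.4 RPKM in the E10.5 capture, 11.4 and 11.7 in the E11.5 captures, 13.2 and 11.7 (8.62 without the germ-cell-like cells) in the E12.5 captures, 14.3 and 12.1 in the E13.5 captures and 7.09 and 4.19 in the E16.5 captures. The E16.5 captures were the lowest of the 9. At the centromere and kinetochore the same was seen for Ndc80, which with Nuf2 binds microtubule ends. Ndc80 averaged 22.1 RPKM in the E10.5 capture, 19.4 and 24.9 in the E11.5 captures, 19.1 and 33.8 (21.7 without the germ-cell-like cells) in the E12.5 captures, 24.6 and 23 in the E13.5 captures and 11.8 and 6 in the E16.5 captures. Both E16.5 captures were below all others. Nuf2 averaged 7.91 RPKM and was lowest in the first E11.5 capture, at 2.5. Cenpa, the histone that marks the centromere, was the highest of this role by its mean over the captures. Cenpa averaged 53.8 RPKM in the E10.5 capture, 22.3 and 15.1 in the E11.5 captures, 21.9 and 20.1 (19.6 without the germ-cell-like cells) in the E12.5 captures, 21.8 and 19.7 in the E13.5 captures and 20 and 42.5 in the E16.5 captures. The E10.5 capture stood above all others. Cenpe, a motor of the kinetochore, averaged 22.1 RPKM in the E10.5 capture, 16 and 11.4 in the E11.5 captures, 13.6 and 46 (38.2 without the germ-cell-like cells) in the E12.5 captures, 27.8 and 20.3 in the E13.5 captures and 25 and 40.1 in the E16.5 captures. The second capture of E12.5 and the second of E16.5 were the highest. Cenpf, a large kinetochore protein, averaged 10.7 RPKM.

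Kif20a, a motor of late mitosis, had the highest mean of the kinesins. Kif20a averaged 56.7 RPKM in the E10.5 capture, 33.3 and 27.7 in the E11.5 captures, 43 and 91.5 (42 without the germ-cell-like cells) in the E12.5 captures, 25.4 and 45.8 in the E13.5 captures and 58.7 and 44.8 in the E16.5 captures. It was found in 96.2% of high cells and 54.1% of low cells, and 29.3% of its exonic length overlaps Cdc23 on the other strand, whose reads may be counted in it, since whether reads were counted by strand is not given in the sources used here. Overlaps of 2.84% to 15.1% of the exonic length exist for Ccna2, Cdc25c, Kif4, Nusap1, Prc1 and Cdc20. Kif11, which pushes the spindle poles apart, averaged 15.2 RPKM. Kif22, which moves chromosome arms, averaged 60.1 RPKM in the E10.5 capture, 21.2 and 33.9 in the E11.5 captures, 28.8 and 58.6 (24.4 without the germ-cell-like cells) in the E12.5 captures, 48 and 20.6 in the E13.5 captures and 36.3 and 47 in the E16.5 captures. It was highest at E10.5 and low in the first E11.5 and second E13.5 captures. Kif23, a motor of the midbody, averaged 29.1 RPKM in the E10.5 capture, 10.9 and 10.54 in the E11.5 captures, 11.4 and 42.9 (12.6 without the germ-cell-like cells) in the E12.5 captures, 52.8 and 24 in the E13.5 captures and 38 and 51.1 in the E16.5 captures. Both E11.5 captures and the first E12.5 capture were low, as was the second E12.5 capture without the germ-cell-like cells, and the first E13.5 and second E16.5 captures were high. Kif2c, which shortens microtubules, averaged 16 RPKM in the E10.5 capture, 7.2 and 9.09 in the E11.5 captures, 20.7 and 7.57 (3.24 without the germ-cell-like cells) in the E12.5 captures, 10.6 and 9.31 in the E13.5 captures and 25.7 and 28.8 in the E16.5 captures. The E16.5 captures were the highest. Kif4, a chromosome-bound motor, averaged 8.61 RPKM in the E10.5 capture, 4 and 5.05 in the E11.5 captures, 4.64 and 3.05 (4.35 without the germ-cell-like cells) in the E12.5 captures, 9.68 and 4.8 in the E13.5 captures and 7.92 and 12.1 in the E16.5 captures. The second E12.5 capture was the lowest, or the first E11.5 capture without the germ-cell-like cells, which had 0.66 RPKM.

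Among spindle and microtubule proteins, Ckap2l had the highest mean over captures, though Tpx2 was higher in some of them. Ckap2l averaged 34.5 RPKM in the E10.5 capture, 17.5 and 24 in the E11.5 captures, 35.2 and 80.1 (75.5 without the germ-cell-like cells) in the E12.5 captures, 35.6 and 34 in the E13.5 captures and 31.8 and 63.1 in the E16.5 captures. The second E12.5 capture was the highest, with and without the germ-cell-like cells. Nusap1, which bundles spindle microtubules, averaged 19.7 RPKM in the E10.5 capture, 6.48 and 20.8 in the E11.5 captures, 28.7 and 45.2 (42.3 without the germ-cell-like cells) in the E12.5 captures, 18.6 and 14.7 in the E13.5 captures and 23.4 and 19.7 in the E16.5 captures. It too was highest in the second E12.5 capture, with and without them. Ckap2, a relative of Ckap2l, averaged 37.3 RPKM in the E10.5 capture, 8.06 and 11.4 in the E11.5 captures, 7.49 and 16.4 (17.3 without the germ-cell-like cells) in the E12.5 captures, 14.9 and 9.77 in the E13.5 captures and 4.92 and 21.3 in the E16.5 captures. The E10.5 capture stood above all others. Prc1, which crosslinks the microtubules of the spindle midzone, averaged 9.92 RPKM in the E10.5 capture, 10.7 and 7.41 in the E11.5 captures, 19.7 and 29.6 (16.6 without the germ-cell-like cells) in the E12.5 captures, 25.7 and 12.8 in the E13.5 captures and 20.5 and 32.9 in the E16.5 captures. E10.5 ranked 8 of 9 among the captures for Prc1, and 5 or better for every other member. Tpx2, which activates Aurka, averaged 30.5 RPKM, Hmmr, which links Tpx2 to the spindle, 13.46 and Fam83d, a spindle protein that binds Hmmr, 5.09.

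Of the genes of the anaphase-promoting complex (APC/C) and mitotic exit, Pttg1 (securin), which keeps sister chromatids joined until it is destroyed, had the highest mean over captures. Pttg1 averaged 49.9 RPKM in the E10.5 capture, 26.4 and 27 in the E11.5 captures, 40.3 and 62 (56.6 without the germ-cell-like cells) in the E12.5 captures, 59.8 and 36.5 in the E13.5 captures and 48.6 and 62.5 in the E16.5 captures. Its E11.5 captures were the lowest. Cdc20, which activates the complex, averaged 45.3 RPKM in the E10.5 capture, 15.2 and 11.8 in the E11.5 captures, 16.1 and 60.4 (37.6 without the germ-cell-like cells) in the E12.5 captures, 10.9 and 6.55 in the E13.5 captures and 27.8 and 36.2 in the E16.5 captures. The E13.5 captures were the lowest for Cdc20. Ube2c, the enzyme that feeds the complex with ubiquitin, averaged 32.7 RPKM and Cdca3, which helps entry into mitosis, 20.9. For cytokinesis, Anln (anillin), a scaffold of the contractile ring, averaged 14.3 RPKM in the E10.5 capture, 6.43 and 1.66 in the E11.5 captures, 5.54 and 23.4 (7.09 without the germ-cell-like cells) in the E12.5 captures, 12 and 4.75 in the E13.5 captures and 6.41 and 3.75 in the E16.5 captures. The second E12.5 capture was the highest, or E10.5 without the germ-cell-like cells, which had 53.6 RPKM. Ect2, which switches on the ring, averaged 7.74 RPKM and was highest at E10.5.

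**Figure D2:**
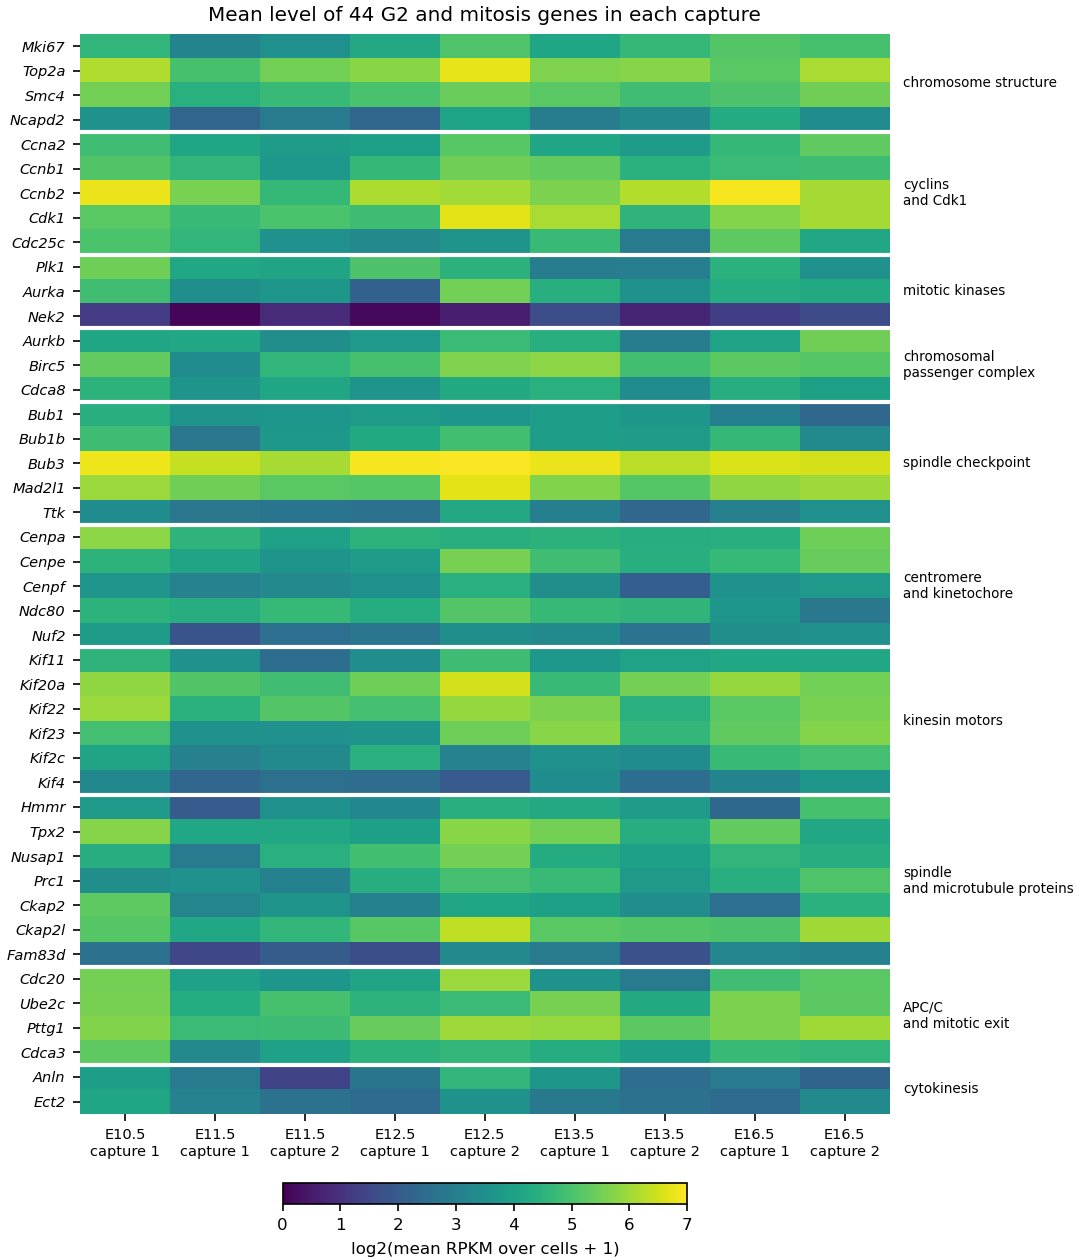
Each row is 1 of the 44 genes, grouped by role, and each column 1 of the 9 captures in order of stage; colour gives log2(mean RPKM over cells + 1). The E11.5 columns are both below the E10.5 column in 40 of the 44 rows, and Bub3 is bright in all captures with 67.1 to 123 RPKM.

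By rank, 10 of the 44 genes had their highest capture mean at E10.5 (22.7%, against 9.56% of the 12313 genes), 19 in the second E12.5 capture (43.2%, against 13.51%), 3 in the first E13.5 capture (6.82%, against 11.7%), and 5 and 7 in the E16.5 captures (11.4% and 15.9%, against 13.4% and 12.99%). None had it in the E11.5 captures (against 9.23% and 10.1% of all genes), the first E12.5 capture (11.6%) or the second E13.5 capture (7.92%). With the germ-cell-like cells left out, 16 were highest at E10.5 and 6 in the second E12.5 capture. The shares of all genes were not taken without these cells. The lowest capture was an E11.5 capture for 24 of the 44, 15 in the first and 9 in the second, and the second E13.5 capture for 11. Of all genes, 9.64%, 7.81% and 5.73% had their lowest mean in these 3 captures.

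The first comparison asks what E11.5 cells had relative to E10.5 cells. All 44 genes were lower at E11.5 in capture means, with a median log2 difference of -0.93, against 0.07 over all genes tested. In 40 of the 44 (90.9%) both E11.5 captures were below the E10.5 capture, against 30.7% of all genes. The others of the 44 were Aurkb, Ndc80, Nusap1 and Prc1. None of the 44 passed the test: limma called 0 of the 44 at an adjusted p under 0.05, against 48 (0.39%) of 12313 genes, and 9 of the 44 had an unadjusted p under 0.05, as had 6.39% of all genes. The largest differences were those of Ckap2, -1.85 (SE 0.80, adjusted p 0.744), and Anln, -1.78 (SE 0.94, adjusted p 0.874), and the smallest adjusted p was that of Ccnb2, -1.67 (SE 0.52, adjusted p 0.406). At the other end, Prc1 had -0.14 (SE 0.62, adjusted p 1) and Ndc80 -0.0041 (SE 0.59, adjusted p 1). E10.5 has 1 capture, whose spread was taken from the other stages, and it was sequenced with the 25 M read captures, so run and stage cannot be told apart here.

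On another scale, the mean over cells of log2(RPKM + 1), which gives more weight to how many cells have a transcript, limma called 5 of the 44 as lower at E11.5, against 92 (0.747%) of all genes. These were Ckap2 at -2.05, Ccnb2 at -2.74, Birc5 at -2.68, Cenpa at -2.39 and Cdca3 at -2.17, with adjusted p of 0.0215 to 0.0348. The shares of cells with Ccnb2 at 1 RPKM or more were 32.7% and 21.9% in the E11.5 captures, against 64.4% at E10.5. For Birc5 they were 19.2% and 31.7% at E11.5, against 78% at E10.5. Over the 44 genes the median on this scale was -1.40, against -0.09 over all genes. Of the 92 genes called, 82 were lower at E11.5, and 40.5% of all genes lay above 0. On capture means 47 of the 48 called were higher at E11.5, and 54.3% of all genes lay above 0. Median genes detected were 6503 at E10.5 and 4959.5 and 5668 at E11.5, and the part of this was not tested.

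E13.5 was set against E10.5 as well, because both carry the label of 25 M reads. The median over the 44 genes was -0.59, against 0.08 over all genes, and 36 of 44 were lower at E13.5. With 1 capture left out at a time the median was -0.73 to -0.27, and it was -0.27 without the second E13.5 capture. That capture was on a small chip, as was E10.5, and the first E13.5 capture on a medium one. On mean log2 values the median was -0.97, with all 44 below 0. Both E13.5 captures were below the E10.5 capture in 29 of the 44 (65.9%), against 31.1% of all genes. None of the 44 passed limma's test, against 131 (1.06%) of all genes, and 3 had an unadjusted p under 0.05, against 9.14% of all genes. Plk1 came nearest, with -2.47 (SE 0.58, adjusted p 0.0805), and Cdc20 had -2.29 (SE 0.71, adjusted p 0.218). Prc1, 0.81 (SE 0.62, adjusted p 0.818), and Kif23, 0.29 (SE 0.72, adjusted p 0.978), had the largest positive differences, but were at -0.08 and -0.07 on mean log2 values, and Kif23 at -0.27 without the first E13.5 capture. On the scale of mean log2 values limma called 4 of the 44, against 238 (1.93%) of all genes: Plk1 at -1.82, Cdc20 at -1.86, Ckap2 at -1.85 and Cenpa at -2.16, with adjusted p of 0.0173 to 0.032. Of those 238 genes, 169 were lower at E13.5. Both comparisons with E10.5 share its single capture.

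E12.5 had more of these transcripts than E11.5 in capture means, and much of that came with the germ-cell-like cells. The median log2 difference was 0.70, against -0.01 over all genes, and 40 of the 44 were higher at E12.5. Both E12.5 captures were above both E11.5 captures in 20 of the 44 (45.45%), against 18.6% of all genes, with the germ-cell-like cells kept. Of those 20, Smc4, Plk1, Bub1 and Cdca3 no longer were when these cells were left out, and the share of all genes was not taken without them. Limma called none of the 44 and 0% of all genes, and 10 of the 44 had an unadjusted p under 0.05, against 7.8% of all genes. Nusap1 had 1.54 (SE 0.54, adjusted p 0.531) and Anln 1.51 (SE 0.77, adjusted p 0.703), the largest positive differences. Cdc25c had -0.62 (SE 0.66, adjusted p 0.886) and Kif4 -0.20 (SE 0.59, adjusted p 0.973). Without the germ-cell-like cells the median was 0.24, with 33 of 44 above 0, and 4 of the 44 had an unadjusted p under 0.05. The differences were then 1.49 for Nusap1, 0.71 for Anln, -2.03 for Cdc25c and -0.0023 for Kif4. Without the second E12.5 capture the median was 0.25, and without the first 1.32. The summed mean RPKM of the 10 germ cell markers was 14.5 and 105.3 in the E12.5 captures, against 11.7 and 5.06 in the E11.5 captures, with Pou5f1, Nanog and Mael at 0 in the germ-cell-like cells.

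The steps after E12.5 had medians nearer 0. Both steps that involve E13.5 set captures labelled 25 M reads against captures labelled 10 M, so run and stage cannot be told apart in them. E13.5 minus E12.5 had a median of -0.22 (all genes 0.003), with 33 of 44 below 0, and without the germ-cell-like cells a median of 0.07, with 17 below 0. It was -0.76 without the first E12.5 capture and 0.22 without the second, and -0.50 without the first E13.5 capture and 0.047 without the second. Limma called none of the 44 and 0% of all genes, and 2 of the 44, Plk1 and Cdc20, had an unadjusted p under 0.05, against 4.57% of all genes. Plk1 had -1.80 (SE 0.48, adjusted p 0.855) and Cdc20 -1.78 (SE 0.58, adjusted p 0.994), and at the other end Nek2 had 0.82 (SE 0.64, adjusted p 0.994) and Kif4 0.72 (SE 0.59, adjusted p 0.994). Without the germ-cell-like cells Plk1 had -1.22, Cdc20 -1.44, Nek2 1.11 and Kif4 0.52. E16.5 minus E13.5 had a median of 0.39, against -0.06 over all genes, with 35 of 44 above 0. Both E16.5 captures were above both E13.5 captures in 14 of the 44 (31.8%), against 17.6% of all genes. Limma called none of the 44, against 11 (0.0893%) of all genes, and 4 had an unadjusted p under 0.05, against 8.47% of all genes. Those 4 were Cdc20 at 1.79 (SE 0.58, adjusted p 0.394), Kif2c at 1.37 (SE 0.53, adjusted p 0.508), Ndc80 at -1.39 (SE 0.48, adjusted p 0.434) and Bub1 at -1.13 (SE 0.49, adjusted p 0.574). Without the second E13.5 capture the median was 0.055, and without the first 0.60.

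E16.5 minus E12.5, within the captures labelled 10 M reads, had a median of 0.04 (all genes -0.06), with 25 of 44 above 0, and 0.48 with 33 of 44 above 0 when the germ-cell-like cells were left out. None of the 44 was called, against 44 (0.357%) of all genes, and 1 had an unadjusted p under 0.05, against 12.2% of all genes. That gene was Ndc80, with -1.49 (SE 0.48, adjusted p 0.223), and the next most negative difference was that of Anln, -1.09 (SE 0.77, adjusted p 0.61). Cdc25c had 1.28 (SE 0.66, adjusted p 0.477) and Kif4 1.18 (SE 0.59, adjusted p 0.457). Without the germ-cell-like cells Ndc80 had -1.18, Anln -0.29, Cdc25c 2.68 and Kif4 0.98. Leaving out the first capture of E12.5 gave a median of -0.49 and leaving out the second 0.45, against 0.23 and -0.073 when the first or the second capture of E16.5 was left out. The plot of changes shows the 44 genes of each comparison with and without those cells.

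**Figure D3:**
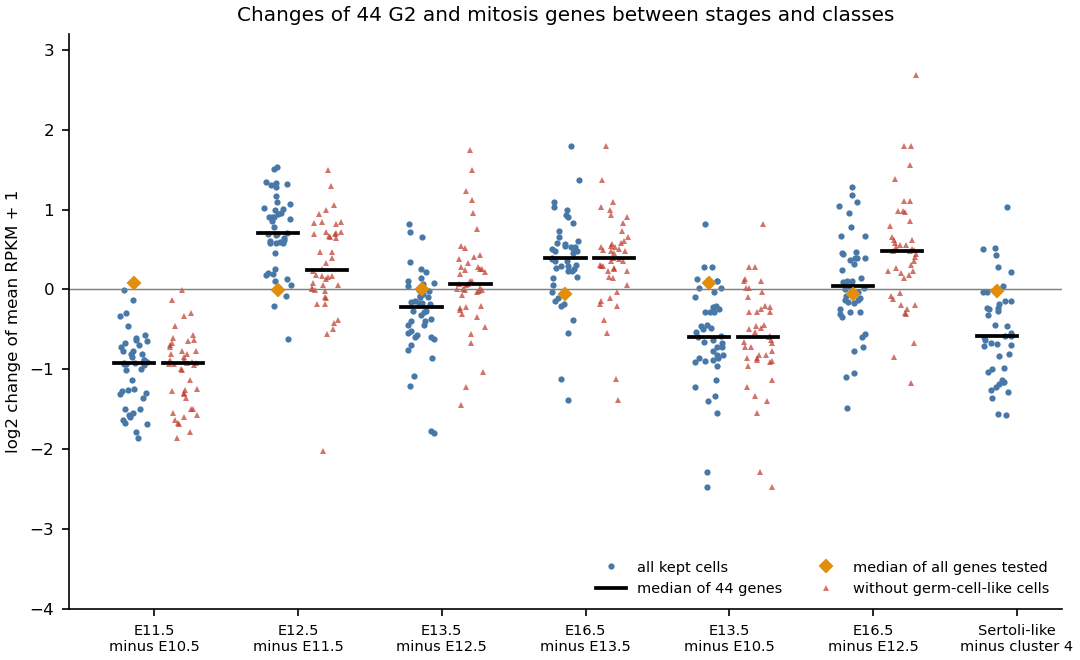
Points are the log2 differences of the 44 genes in 6 comparisons of stages and 1 of classes, with all kept cells (circles) and without the germ-cell-like cells (triangles); lines are medians of the 44 and diamonds medians of all genes tested. All 44 lie below 0 at E11.5 minus E10.5, and the median of E12.5 minus E11.5 is 0.70 with and 0.24 without the germ-cell-like cells.

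The share of high cells was then taken by cell class. Clusters rest on marker genes of gonadal cell types, none of them among the 44, so the classes are rebuilt from these data and named from their leading genes. Sertoli-like cells (Cst12, Etd, Hsd17b1) numbered 62, progenitor-like cells (Upk3b, Bnc1, Shisa3) 150 and Leydig-like cells (Insl3, Cyp17a1, Cyp11a1) 8. Cluster 4, with 110 cells, led by Acta2, Itih5 and Dcn, and cluster 8, with 49 cells, were not named. No doublet caller was run. High cells made up 26 of the 62 Sertoli-like cells (41.9%), 52 of the 150 progenitor-like cells (34.7%), 29 of the 110 cells of cluster 4 (26.4%), 9 of the 49 of cluster 8 (18.4%), 1 of the 8 Leydig-like cells and 13 of the 13 germ-cell-like cells. These shares are pooled over captures, and the classes differ in stage, so class and stage are mixed in their order. Of the 62 Sertoli-like cells 58 came from E13.5 or E16.5, against 26 of the 150 progenitor-like cells. The E10.5 capture gave 27 of the 52 high progenitor-like cells. Only 84 of the 150 progenitor-like cells stayed together at 10 clusters. Among progenitor-like cells, 7 of 29 (24.1%, 12.2 to 42.1) and 7 of 23 (30.4%, 15.6 to 50.9) were high at E11.5, against 27 of 47 at E10.5 (57.5%, 43.3 to 70.5). The interval of the second E11.5 capture overlaps that of E10.5. In cluster 8, 1 of 14 and 0 of 15 cells were high at E11.5, against 4 of 8 at E10.5, and in cluster 4, 0 of 9 and 1 of 2 at E11.5, against 3 of 4 at E10.5.

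**Figure D4:**
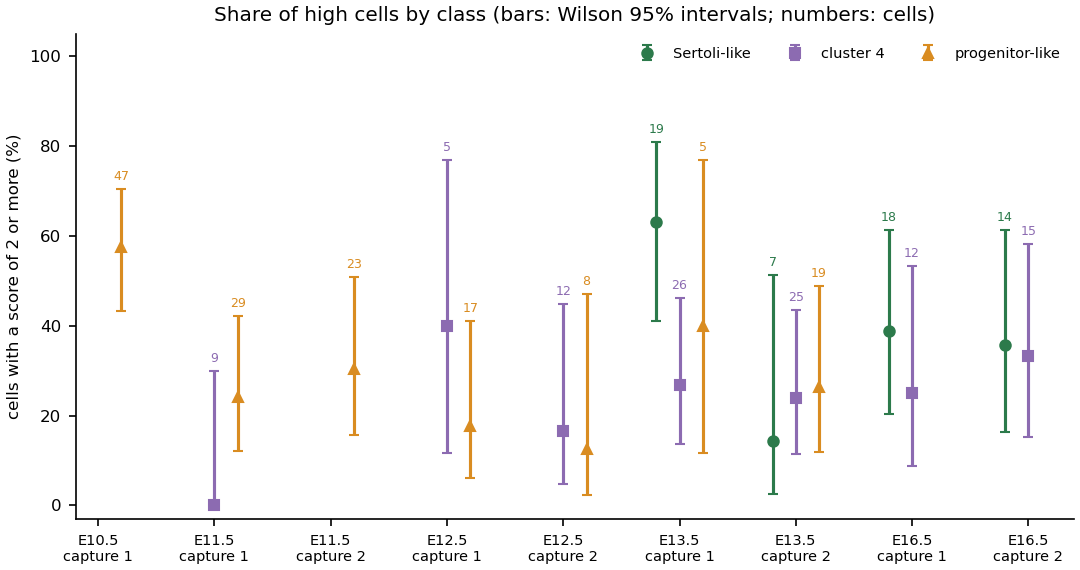
The share of cells with a score of 2 or more is plotted by capture for Sertoli-like cells, cluster 4 and progenitor-like cells, where a class had at least 5 cells, with Wilson 95% intervals and the number of cells above. Progenitor-like cells are highest at E10.5 (57.5%), and Sertoli-like cells range from 14.3% to 63.2% over the 4 later captures.

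Sertoli-like cells of E13.5 and E16.5 were set against cluster 4, the largest other cluster of those captures. High cells were 25 of 58 Sertoli-like cells (43.1%), against 21 of 78 cells of cluster 4 (26.9%). By capture they were 12 of 19 (63.2%) against 7 of 26 (26.9%) and 1 of 7 (14.3%) against 6 of 25 (24%) at E13.5, and 7 of 18 (38.9%) against 3 of 12 (25%) and 5 of 14 (35.7%) against 5 of 15 (33.3%) at E16.5. The order was thus the same in 3 of the 4 captures, and all 4 pairs of intervals overlap. Among high cells the score averaged 3.49 in Sertoli-like cells against 4.92 in cluster 4 in the first E13.5 capture, and 4.10 against 4.197 and 3.93 against 4.62 in the E16.5 captures. In the second E13.5 capture the single high Sertoli-like cell had 2.35, against a mean of 4.19 in cluster 4. More genes were detected in Sertoli-like cells, a median of 5160.5 to 6928 against 4459 to 5706 in cluster 4, and the part of this in the shares was not tested.

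In mean RPKM per class and capture, with capture as a block, the median log2 difference of the 44 genes was -0.59, against -0.02 over the 11369 genes tested, with 37 of 44 lower in Sertoli-like cells. Limma called none of the 44, against 636 (5.59%) of all genes, and 3 had an unadjusted p under 0.05, against 19.4% of all genes. The difference was largest in the second E13.5 capture, with 7 Sertoli-like cells, where its median was -2.31. The others had -0.20, 0.37 and -0.45, and without the second E13.5 capture the median was -0.11, and without the first E16.5 capture -0.90. Cenpe had 23.1 RPKM in Sertoli-like cells against 35.4 in cluster 4 in the first E13.5 capture, 3.46 against 32.8 in the second, 20.4 against 31.1 in the first E16.5 capture and 14.6 against 69.6 in the second, a log2 difference of -1.57 (SE 0.52, adjusted p 0.116). Sertoli-like cells were lower in all 4 captures. Ccnb1 had 36.1 RPKM in Sertoli-like cells against 46.8 in cluster 4 in the first E13.5 capture, 1.67 against 29.2 in the second, 26.2 against 28.6 in the first E16.5 capture and 10.1 against 52 in the second, a difference of -1.56 (SE 0.60, adjusted p 0.175), again lower in all 4.

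The largest positive differences were those of Kif22 and Ncapd2. Kif22 had 49.4 RPKM in Sertoli-like cells against 56.3 in cluster 4 in the first E13.5 capture, 21.4 against 8.86 in the second, 58.7 against 5.76 in the first E16.5 capture and 54.6 against 55.5 in the second, a difference of 1.03 (SE 0.55, adjusted p 0.339), which rests on the second E13.5 and the first E16.5 captures. Ncapd2 had 7.97 RPKM in Sertoli-like cells against 6.09 in cluster 4 in the first E13.5 capture, 15.4 against 10.1 in the second, 23.9 against 12.6 in the first E16.5 capture and 11.7 against 9.45 in the second, a difference of 0.52 (SE 0.54, adjusted p 0.662), higher in all 4. Mki67 had 21.3 RPKM in Sertoli-like cells against 14.2 in cluster 4 in the first E13.5 capture, 0.047 against 29.6 in the second, 46.7 against 18.4 in the first E16.5 capture and 21.2 against 47 in the second, with no common order. On the scale of mean log2 values the median of the 44 was 0.15, against 0.14 over all genes, and limma called 1 of the 44, Kif23 at 1.54 (adjusted p 0.0259), against 1696 (14.9%) of all genes. The sign of the median over the 44 thus depends on whether levels or their logs are averaged over cells.

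Within captures the 44 genes moved together from cell to cell to different degrees. For each gene, its log2(RPKM + 1) was correlated with the mean of the other members over 396 cells, both centred within captures, as a description. Ccnb1 (r = 0.81), Mki67 (0.81), Nusap1 (0.80), Tpx2 (0.79) and Ube2c (0.79) were the most like the rest. Bub3 (0.33), Nek2 (0.40), Fam83d (0.48), Ckap2 (0.54) and Mad2l1 (0.54) were the least. Bub3 was in 67.7% of low cells, the most of the 44, and Nek2 in 15.4% of high cells, the fewest. Over 946 pairs the median r was 0.47, the highest was that of Nusap1 with Ckap2l (0.72) and the lowest that of Bub3 with Pttg1 (0.12). The points share depth and capture chemistry, and genes detected per cell moved with the score.

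**Figure D5:**
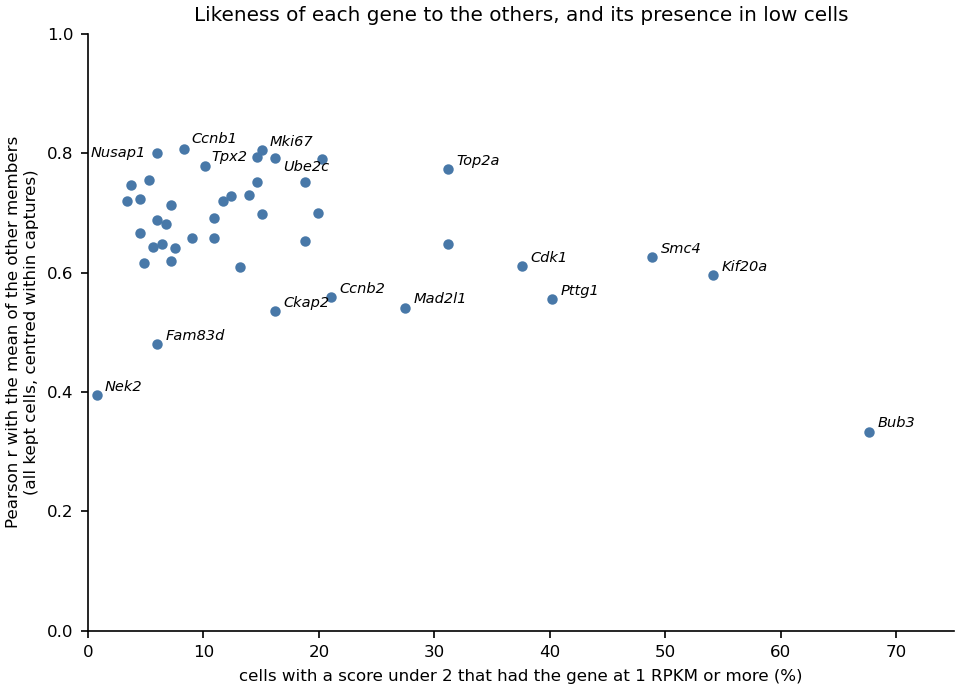
Each point is 1 of the 44 genes, with the share of low cells that had it at 1 RPKM or more on the x axis and its Pearson r with the mean of the other members, over 396 cells, on the y axis. Bub3, present in 67.7% of low cells, has the lowest r (0.33), and Ccnb1 and Mki67 the highest (0.81).

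Outside the 44, among 9737 genes present in at least 10% of cells, those whose level followed the score most closely included Tacc3 (r = 0.76), Kif15 (0.76), Cdca2 (0.76), Casc5 (0.70), Fam64a (0.70), Ncapg (0.70), Shcbp1 (0.69), Sgol1 (0.68) and Cks2 (0.67). Tacc3 and Kif15 are spindle proteins, Ncapg a condensin subunit and Sgol1 a guardian of sister chromatid cohesion. Tacc3 averaged 78.2 RPKM in high cells and 7.08 in low cells. A list of other G2 and mitosis genes had a median r of 0.58, with 32 of 42 above 0.5, against 0.616% of all 9737 genes. Genes of DNA replication and S phase had a median of 0.20 and none of 38 above 0.5, the highest being Rrm2 (0.49). The 6 G1 cyclins and partners had a median of 0.06 and 11 cell cycle inhibitors 0.06, against 0.05 over all genes. The lowest values were those of Kdm5b (-0.20), Tcn2 (-0.18), Calcoco1 (-0.17), Tcp11l2 (-0.16) and Speg (-0.16).

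Between stages the other lists gave few calls. Of 38 genes of DNA replication and S phase, all 38 had a lower mean in E11.5 cells than in E10.5 cells, with a median difference of -0.82, where 54.3% of all genes were higher at E11.5. Limma called none of them in any comparison, with 2 to 5 of 38 at an unadjusted p under 0.05, against 4.57% to 19.4% of all genes. Of 44 other G2 and mitosis genes tested, the median was -0.69 at E11.5 minus E10.5, with 11 above 0, and none was called between stages, with 0 to 4 of 44 at an unadjusted p under 0.05, against 4.57% to 12.2% of all genes. None of the 6 G1 cyclins and partners was called either, with 0 or 1. Of 13 inhibitors, 1 was called: Cdkn1c, an inhibitor of cyclin-dependent kinases, fell at E16.5. Cdkn1c averaged 336.7 RPKM in the E10.5 capture, 366.8 and 440.4 in the E11.5 captures, 123.5 and 102.4 in the E12.5 captures, 112.9 and 232.4 in the E13.5 captures and 24.9 and 24.7 in the E16.5 captures. Its log2 difference was -2.66 (SE 0.36, adjusted p 0.0167) at E16.5 minus E13.5 and -2.14 (SE 0.36, adjusted p 0.0308) at E16.5 minus E12.5. The E13.5 captures were labelled 25 M reads, and those of E12.5 and E16.5 10 M. The call at E16.5 minus E13.5 was lost when 1 capture of E11.5, E12.5 or E16.5, whichever it was, or the second of E13.5 was left out (adjusted p 0.0546 to 0.187). That at E16.5 minus E12.5 was lost when any 1 capture of E11.5, E12.5 or E16.5 was left out (0.0727 to 0.203). Between classes, Pbk, a mitotic kinase, was higher in Sertoli-like cells than in cluster 4 (1.47, SE 0.31, adjusted p 0.0186), and Btg2, an antiproliferative gene, was lower (-1.35, SE 0.31, adjusted p 0.0281). Pbk was the 1 gene called of 44 other G2 and mitosis genes, whose median was -0.22, with 19 above 0. Btg2 was the 1 called of 12 inhibitors, whose median was -0.37, with 2 above 0. Of all genes, 5.59% were called between classes. The call of Pbk was lost without either E13.5 capture or the second E16.5 capture (adjusted p 0.0702 to 0.0888), and that of Btg2 without either E16.5 capture (0.0764 and 0.123).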

How the data were processed

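Single cells were captured on microfluidic chips and sequenced in 100 bp paired reads, per the labels' protocols. The deposited values are RPKM per gene and cell, a unit read from the values; GRCm38.p3 and mm10 are named in the submitters' processing notes, while aligner, counter and annotation were not given in the sources used here. A median of 65.8% of low values per cell came out as whole reads (within 0.05 of a whole number), so counts could not be recovered and depth is only implied (1.08 to 13.0 M reads per cell). The 35 labelled cells without values were not used, 0 columns lacked a sample, 3 cells with under 3000 genes were left out, and 2 wells of the second E12.5 capture with nearly equal values (r 0.998, the next pair 0.701) were averaged. No doublets were called or removed.

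Captures, not cells, were the replicates: RPKM was averaged over the cells of a capture, and limma 3.58.1 (R 4.3.3; trend, robust) was fitted to log2(mean + 1) over all 12313 genes with stage as a factor, with Benjamini-Hochberg adjustment over all of them and calls at 0.05. Fold changes on this scale understate the change of low genes. Cells were clustered (Ward, 8 clusters) on 92 measured marker genes, which the test between classes leaves out. The limma fits were run on simulated data, with noise drawn independently for each gene, as a check of the code only. Named with values by capture are the highest gene of each role and the 2 largest changes in each direction per comparison. Also named are genes among the 10 most and the 5 least like the score; 1 of them is not reported here. The 44 genes, the lists and the tests were chosen with earlier results of these data known. Leaving out the germ-cell-like cells, thinning and the replicate block were added after the data were seen. Cluster 4 was compared because it was the largest other cluster, since no cluster could be named interstitial-like.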

Additional observations from a re-analysis of the deposited data

How the results depend on the processing

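None of the 44 genes was called by limma in any comparison with single captures left out, another pseudocount, no filter on low values, rescaled captures, no filter on cells, 1 run alone or the germ-cell-like cells left out. The exception was the mean over cells of log2 values, with 5 called for E11.5 minus E10.5, 4 for E13.5 minus E10.5 and 1 between classes, and medians of -1.40 and -0.97 in the first and the second of these. The germ-cell-like cells moved the median to 0.24 for E12.5 minus E11.5 and 0.48 for E16.5 minus E12.5 when left out. Counts over all genes moved more. With the mean of log2 values they were 92 for E11.5 minus E10.5, 1 for E12.5 minus E11.5, 72 for E16.5 minus E13.5, 238 for E13.5 minus E10.5, 243 for E16.5 minus E12.5 and 1696 between classes. With no filter on low values, where more genes are tested, they were 205, 5, 0, 257 and 5 in the same order of stage comparisons and 0 between classes. E11.5 minus E10.5 gave 98 with a pseudocount of 0.1 and 12 with 5, and E13.5 minus E10.5 gave 83 with 5 and 0 with the captures labelled 25 M reads alone, which are fewer. The cause of the other shifts was not tested.

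Leaving out 1 capture at a time gave 5 to 45 genes called for E11.5 minus E10.5, 0 to 1 for E12.5 minus E11.5, 0 for E13.5 minus E12.5, 0 to 11 for E16.5 minus E13.5, 39 to 121 for E13.5 minus E10.5, 0 to 48 for E16.5 minus E12.5 and 233 to 509 between classes; a stage left with 1 capture is assumed to vary like the others. The medians of the 44 genes were -1.07 to -0.79, 0.25 to 1.32, -0.76 to 0.22, 0.055 to 0.60, -0.73 to -0.27, -0.49 to 0.45 and -0.90 to -0.11 in the same order. Some named changes turned sign: for E11.5 minus E10.5, leaving out 1 capture gave -0.18 to 0.17 for Ndc80 (above 0 without the first E11.5 capture) and -0.38 to 0.10 for Prc1 (above 0 without the second); for E12.5 minus E11.5, mean log2 values gave 0.11 for Cdc25c and 0.23 for Kif4, and leaving out 1 capture -0.44 to 0.036 for Kif4 (above 0 without the second E12.5 capture); for E13.5 minus E10.5, mean log2 values gave -0.075 for Kif23 and -0.085 for Prc1, and leaving out 1 capture -0.27 to 0.84 for Kif23 (below 0 without the first E13.5 capture). Of 489 values for 32 named changes, 455 kept their direction and call. Capture numbers are only names: deviations of same-numbered captures correlated at -0.0939 to 0.0306 over 6 pairs of stages. A replicate block gave 27 genes called for E11.5 minus E10.5 and changed no call of the 44.

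With a limit of 1 in place of 2 for a high cell the share at E10.5 was 71.2%, and with 3 it was 44.1%. E10.5 had the highest share at 3, and at 1 the second E12.5 capture did, with 86.5%. With 1 or 2 captures per stage, and depth known only as implied, a difference in 1 gene had to be large against a typical standard error of 0.53 to 0.65 on the log2 scale to be called.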
